A study of Mus musculus with 2 samples.

Results

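The 9 genes described here include the adult globin genes Hbb-bt, Hbb-bs, Hba-a1 and Hba-a2 and the erythroid regulators Klf1 and Epor. The others, Car1, Car2 and Tspo2, were listed with them as genes of erythroid commitment. Of these, Car2 was found in nearly every cell of both libraries. The members were taken as the rows of the deposited matrices that carry these symbols, 9 of 32285 genes. The cells were mouse hematopoietic stem cells in suspension culture, labelled as coming from blood and kept for 48 h in RO-3066 or in the vehicle DMSO. Both groups share the culture and carry no other treatment in the labels, which give no strain, age, dose or target of RO-3066. There was 1 library per group, so none of the differences was checked in replicates, no test was made, and treatment and library cannot be told apart.

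Red blood cells are filled with hemoglobin, a tetramer of α-globin and β-globin chains that each hold heme. In progenitors that can become either megakaryocytes or red cells, Gata1 drives both branches, Klf1 favours the red cell branch, and the erythropoietin receptor Epor keeps red cell precursors alive. Pf4, platelet factor 4, is a granule protein of the megakaryocyte branch. Mature red cell precursors carry α-globin and β-globin messages together in large amounts.

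After filtering, 3683 RO-3066 cells with 165153122 unique molecular identifiers (UMIs, one per captured transcript) and 5833 DMSO cells with 175147071 UMIs remained. A median RO-3066 cell had 34984 UMIs and a median DMSO cell 24060, so shares of cells with a UMI are given for cells thinned to 10000 UMIs, 3559 in RO-3066 and 5749 in DMSO, beside the unthinned values. The libraries shared 7 cell barcodes. Levels are counts per 1000000 UMIs (CPM) summed over the kept cells of a library. Intervals are exact 95% intervals and cover counting error only. All 10 stem cell markers of the list used here were at 1 CPM or more in at least 1 library, and they summed to 498 CPM in RO-3066 and 435 CPM in DMSO. Gata1 was at 33.6 CPM in RO-3066 and 23.1 CPM in DMSO, and Pf4 at 4250 CPM in RO-3066 and 5125.5 CPM in DMSO. Of 13 late red cell markers 6 reached 1 CPM, with a sum of 144 CPM in RO-3066 and 94.9 CPM in DMSO. Among them, Slc4a1 (the anion exchanger band 3) had 0 UMIs in both libraries, and Alas2 (heme synthesis of red cells) had 3 in RO-3066 and 4 in DMSO. Hemgn (hemogen), which stem and megakaryocyte cells also make, was at 101 CPM in RO-3066 and 62.2 CPM in DMSO. No row carries the symbol Ahsp.

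Hbb-bt and Hbb-bs encode the adult β-globin chains and lie side by side on mouse chromosome 7, at chr7:103812524-103813996 and chr7:103826534-103828096 on the minus strand (mm10, GENCODE vM21). The RefSeq windows from 250 bases before to 50 bases after their starts are shown because these neighbours share long stretches of transcript yet differed widely in UMI number and in their spread over cells (GRCm38.p6, chr7:103813874-103814173 and chr7:103827879-103828178, both minus strand). Below them stand the same windows of the regulators Klf1 (chr8:84901732-84902031, plus strand) and Epor (chr9:21963527-21963826, minus strand). Capitals mark 2 kinds of motif, searched on both strands: the GATA words, spelled AGATAA or with a last G AGATAG, spelled with a first T as TGATAA or with both changes as TGATAG, and CCNCNCCC, a word of the CACCC type that Klf1 binds.
Hbb-bt: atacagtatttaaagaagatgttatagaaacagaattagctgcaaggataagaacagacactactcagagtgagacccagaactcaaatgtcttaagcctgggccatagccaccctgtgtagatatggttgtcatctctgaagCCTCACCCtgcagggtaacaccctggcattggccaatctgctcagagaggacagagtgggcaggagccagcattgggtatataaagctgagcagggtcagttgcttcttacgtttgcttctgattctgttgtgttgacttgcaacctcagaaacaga
Hbb-bs: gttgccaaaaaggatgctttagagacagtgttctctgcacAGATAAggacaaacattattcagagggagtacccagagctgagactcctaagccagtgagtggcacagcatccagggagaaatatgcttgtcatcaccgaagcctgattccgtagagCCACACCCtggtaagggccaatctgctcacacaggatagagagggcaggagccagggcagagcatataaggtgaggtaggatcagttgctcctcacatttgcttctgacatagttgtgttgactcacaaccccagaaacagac
Klf1: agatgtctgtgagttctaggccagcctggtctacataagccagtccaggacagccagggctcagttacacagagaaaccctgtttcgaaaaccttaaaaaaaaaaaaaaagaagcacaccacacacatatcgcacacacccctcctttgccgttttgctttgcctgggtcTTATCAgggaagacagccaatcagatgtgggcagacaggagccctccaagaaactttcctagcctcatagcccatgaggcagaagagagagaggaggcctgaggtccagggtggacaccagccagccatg
Epor: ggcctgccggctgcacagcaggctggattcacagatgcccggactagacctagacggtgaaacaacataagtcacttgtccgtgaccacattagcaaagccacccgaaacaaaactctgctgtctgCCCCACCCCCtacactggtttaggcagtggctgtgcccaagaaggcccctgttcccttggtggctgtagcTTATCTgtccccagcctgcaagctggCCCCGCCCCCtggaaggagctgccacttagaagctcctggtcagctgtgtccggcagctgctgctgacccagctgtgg
The window of Hbb-bt held 1 CACCC word and 0 GATA words, and that of Hbb-bs 1 of each. Klf1 held 1 GATA word and 0 CACCC words, and Epor 1 GATA word and 4 CACCC words that overlap in pairs. Among 32851 RefSeq windows of this length 29.8% held a GATA word and 49.5% a CACCC word, so these matches are common letters and say nothing of binding. Windows of a pair were compared without gaps, at the 1 shift that gave most matches. In this way Hbb-bt and Hbb-bs were identical at 168 of 299 compared bases (56.2%), and Hba-a1 and Hba-a2 at all 297. No alignment with gaps was made, so the value for Hbb-bt and Hbb-bs can understate how alike their windows are. Of the 9 members 7 had a window; Car1 and Car2 are named only.

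Of the 9 members, 5 reached 1 CPM in at least 1 library, and 2 of these, Hbb-bt and Klf1, were at least 2-fold higher in RO-3066 than in DMSO. Over the whole table, 11764 genes passed that minimum, of which 4.05% were higher by 2-fold or more in RO-3066 and 0.91% lower by that much. The median of their log2 ratios was 0.03. No member of at least 1 CPM was 2-fold lower (0 of 5). With a minimum of 5 CPM, 1 of 3 members was called higher beside 1.77% of all genes, with a minimum of 20 CPM 1 of 2 beside 0.66%, and with no minimum 5 of 9 beside 19.1%. The shares of all genes called lower at these minima were 0.782%, 0.73% and 6.95%, with 0, 0 and 1 members. The other 4, Hba-a1, Hba-a2, Car1 and Tspo2, stayed at a handful of UMIs in both libraries.

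Hbb-bt had 73844 UMIs in RO-3066 and 34636 in DMSO. This is 447 CPM in RO-3066 against 198 CPM in DMSO, a ratio of 2.26 (2.23 to 2.29). It carries nearly all of the adult globin signal, since the 4 globin genes together stood at 451 CPM in RO-3066 and 200.4 CPM in DMSO, a log2 ratio of 1.17 on the scale of CPM plus 1.

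Hbb-bs had 601 UMIs in RO-3066 and 451 in DMSO, or 3.64 against 2.57 CPM, a ratio of 1.41 (1.25 to 1.60). That ratio rested on very few cells. In DMSO, 1 cell held 149 Hbb-bs UMIs, 33.0% of the library's total, and a second held 47 (10.4%), while the highest RO-3066 cell held 30 (4.99%). Without these 3 cells, left out after their counts were seen, Hbb-bs was at 3.46 CPM in RO-3066 and 1.46 CPM in DMSO. The ratio was then 2.37 (2.04 to 2.76), close to that of Hbb-bt. None of the 3 cells had an Hba-a1, Hba-a2, Alas2 or Gata1 UMI. The DMSO cell with 149 Hbb-bs UMIs had 34 of Hbb-bt, the one with 47 had 2, and the RO-3066 cell with 30 had 0.

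Hba-a1 and Hba-a2, the paired adult α-globin genes on chromosome 11 (chr11:32283511-32284465 and chr11:32296489-32297298), had 12 and 9 UMIs in RO-3066 and 4 and 4 in DMSO. No cell held more than 2 UMIs of either gene. Their transcripts share an exact stretch of 415 bases, and 57.3% of the 90-base windows in the last 300 bases of Hba-a1 occur in Hba-a2. Reads that match both copies can be lost in counting, so the true α-globin level may be higher, which was not tested. The β-globin pair shares a stretch of 430 bases, and 24.2% of such windows near the end of Hbb-bt occur in Hbb-bs. The embryonic globin genes Hbb-bh1, Hbb-bh2 and Hba-x had 0 UMIs in both libraries, and Hbb-y had 7 in RO-3066 and 5 in DMSO.

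Klf1, the zinc finger factor that switches on red cell genes (chr8:84901928-84905291), had 489 UMIs in RO-3066 and 175 in DMSO. Its level was 2.96 CPM in RO-3066 and 0.999 CPM in DMSO, a ratio of 2.96 (2.49 to 3.54). The difference was seen in the deeper cells. Among cells of 15000 to 40000 UMIs Klf1 was at 1.11 CPM in RO-3066 and 1.16 CPM in DMSO (ratio 0.963, 0.688 to 1.33), and among cells above 80000 UMIs at 3.73 CPM in 449 RO-3066 cells and 0.519 CPM in 245 DMSO cells (ratio 7.18, 4.31 to 12.8).

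Epor, the receptor of erythropoietin (chr9:21958897-21963506), had 2304 UMIs in RO-3066 and 1932 in DMSO, or 13.95 and 11.03 CPM, a ratio of 1.26 (1.19 to 1.34). Its direction also depended on depth. In cells of 15000 to 40000 UMIs it was lower in RO-3066, at 5.97 CPM against 9.87 CPM in DMSO (ratio 0.604, 0.529 to 0.688), and in cells above 80000 UMIs it was higher, at 20.7 CPM in RO-3066 against 14.1 CPM in DMSO (ratio 1.46, 1.31 to 1.64).

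Car2 and Car1 encode carbonic anhydrases 2 and 1, neighbours on chromosome 3 (chr3:14886273-14900770 and chr3:14766216-14808368), of which Car1 marks red cell precursors. Car2 had 66890 UMIs in RO-3066 and 54110 in DMSO, or 405 and 309 CPM, a ratio of 1.31 (1.30 to 1.33). Car1, in contrast, had 1 UMI in RO-3066 and 3 in DMSO, which allows no comparison. Tspo2, which encodes a protein made in maturing red cells (chr17:48447907-48451522), had 8 UMIs in RO-3066 and 1 in DMSO, a ratio of 8.48 with a counting interval from 1.14 to 376.

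**Figure D1:**
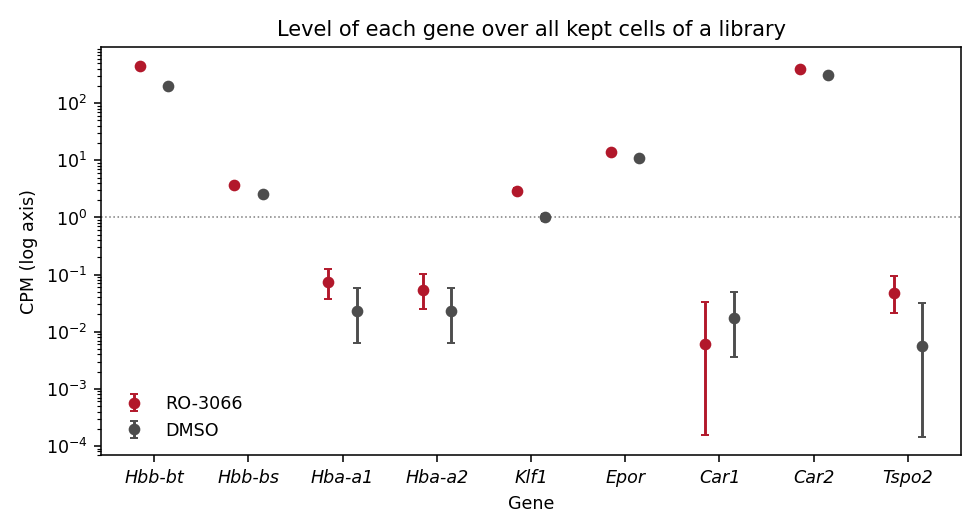
Level of each member in CPM on a log axis, RO-3066 to the left of DMSO, with exact 95% Poisson intervals over 1 library per group. Hbb-bt and Car2 stand above 100 CPM, Epor at 13.95 and 11.03 CPM, Hbb-bs and Klf1 between 0.999 and 3.64 (dotted line at 1), and Hba-a1, Hba-a2, Car1 and Tspo2 below 0.1 CPM in both libraries.

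Hbb-bt was unevenly spread over the cells. In cells thinned to 10000 UMIs, 60.5% of RO-3066 cells (58.9 to 62.1%) and 37.9% of DMSO cells (36.6 to 39.1%) had an Hbb-bt UMI. Had the same UMIs been spread evenly over cells of equal depth, 99.8% of RO-3066 cells and 93.3% of DMSO cells would have had one. The variance of the thinned count was 24.6 times its mean in RO-3066 and 20.1 times in DMSO. Without thinning, 80.5% of RO-3066 cells and 53.6% of DMSO cells had a UMI.

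A minority of cells held most Hbb-bt UMIs, and that minority was larger in RO-3066. Cells with 10 or more Hbb-bt UMIs in 10000 made up 702 RO-3066 cells (19.7%, 18.4 to 21.1%) and 497 DMSO cells (8.64%, 7.93 to 9.40%). They held 78.9% of the RO-3066 and 70.8% of the DMSO thinned UMIs. Cells just under that limit, with 5 to 9 UMIs, were 408 in RO-3066 and 325 in DMSO, so the limit cuts a continuous range and separates no group of its own. The unthinned UMIs were 50% held by 353 RO-3066 cells (9.58%) and by 298 DMSO cells (5.11%), and the top 1% of cells held 9.57% of them in RO-3066 and 17.3% in DMSO. No single cell decided the total: the highest held 287 UMIs (0.389%) in RO-3066 and 184 (0.531%) in DMSO. At the other end, 513 RO-3066 cells (14.4%) and 774 DMSO cells (13.5%) had exactly 1 UMI and together held 2.30% and 4.97% of the thinned UMIs of their libraries, RO-3066 first.

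Free RNA, which adds UMIs to droplets whatever cell they hold, bears on how far these UMIs can be ascribed to cells, and its part was not tested. Summed Hbb-bt UMIs per cell, from the lowest to the highest class of Pf4 share (classes defined with the levels by Pf4), were 24.5, 22.7, 14.7, 13.6 and 16.1 in RO-3066 and 10, 8.36, 4.23, 1.16 and 1.15 in DMSO. The number per cell thus varied less over these classes in RO-3066 than in DMSO. The barcodes that failed the filters, 84 in RO-3066 and 26 in DMSO, held 8 Hbb-bt UMIs in each library (61.8 CPM in RO-3066 and 171 CPM in DMSO), too few to give a background level.

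**Figure D2:**
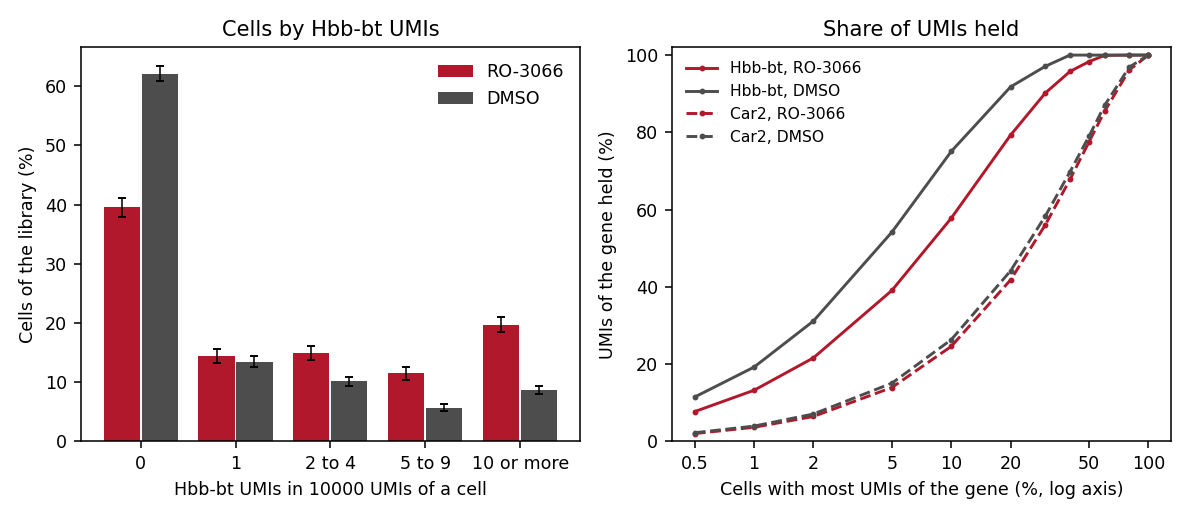
Left, share of cells (%) by their Hbb-bt UMIs in 10000, RO-3066 bars left of DMSO bars, with exact 95% binomial intervals. Right, share of a gene's thinned UMIs (%) held by the cells with most of them (log axis) for Hbb-bt (solid) and Car2 (dashed): the top 10% of cells hold 57.8% of Hbb-bt UMIs in RO-3066 and 75.1% in DMSO, but 24.6% and 26.3% of those of Car2.

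Car2 was the opposite case, a message at modest level in nearly every cell. Of thinned cells 94.9% in RO-3066 and 91.6% in DMSO had a Car2 UMI (unthinned 99.2% and 99.1%, RO-3066 first). The top 1% of cells held 3.69% of its UMIs in RO-3066 and 3.46% in DMSO, and the variance was 2.504 times the mean in RO-3066 and 2.20 times in DMSO. The higher level in RO-3066 came with a shift of the whole range: 10.9% of RO-3066 cells and 4.07% of DMSO cells had 10 or more Car2 UMIs in 10000, while 5.14% of RO-3066 and 8.44% of DMSO cells had 0.

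Epor and Klf1 were low and scattered, with shares of positive cells close to what even spreading gives. Epor was found in 9.53% of RO-3066 cells (8.58 to 10.5%) and 9.15% of DMSO cells (8.42 to 9.92%) after thinning, against 9.92% and 9.66% for even spreading, so the shares differed by less than their intervals. Klf1 was found in 2.16% of RO-3066 cells (1.71 to 2.70%) and 1.17% of DMSO cells (0.904 to 1.48%), against 2.31% and 1.23% for even spreading. Unthinned, the shares were 32.3% of RO-3066 and 22.6% of DMSO cells for Epor, and 10.2% and 2.81% for Klf1. No thinned cell held more than 4 UMIs of either gene, so neither formed a group of strongly expressing cells at this depth. Hbb-bs was found in 3.09% of RO-3066 and 1.53% of DMSO thinned cells.

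Cells with a Klf1 UMI had a lower level of the globin than cells without one, in both libraries. The 374 RO-3066 cells with a Klf1 UMI had Hbb-bt at 257 CPM, against 488 CPM in the 3309 RO-3066 cells without one, and the 164 DMSO cells with a Klf1 UMI had it at 130 CPM, against 200.3 CPM in the 5669 without. Gata1 ran the other way, at 53.5 CPM in Klf1-positive and 29.4 CPM in Klf1-negative RO-3066 cells, and at 40.4 and 22.5 CPM in DMSO. The share with any Hbb-bt UMI, unthinned, was 87.7% of Klf1-positive and 79.7% of Klf1-negative RO-3066 cells, and 47.6% and 53.8% in DMSO, so level and share differed in direction in RO-3066. The Klf1-positive cells were deeper, with medians of 68568 UMIs in RO-3066 and 27021 in DMSO, against 32692 and 23969 in the cells without, and the part of depth in this difference was not tested.

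Levels were then set out by Pf4, using classes of the share of a cell's UMIs that come from Pf4. The classes were cut at the 25th, 50th, 75th and 95th percentile of the DMSO cells, which lie at Pf4 shares of 0.0213%, 0.0563%, 0.273% and 1.38%. They are ranges of a continuous share: 505 RO-3066 and 862 DMSO cells lay within 10% of a cut. From the lowest to the highest class RO-3066 had 1342, 875, 724, 597 and 145 cells and DMSO 1458, 1458, 1458, 1167 and 292.

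Hbb-bt was highest where Pf4 was lowest in both libraries. From the lowest to the highest Pf4 class it stood at 896, 698, 304, 162 and 157 CPM in RO-3066, and at 448, 356, 167, 28.8 and 13.8 CPM in DMSO. RO-3066 was above DMSO in every class, by 2.002, 1.96, 1.82, 5.63 and 11.4 times. The share of thinned cells with an Hbb-bt UMI was 70.6% in RO-3066 and 52.7% in DMSO in the lowest class, and 48.6% in RO-3066 and 8.30% in DMSO in the highest. The highest class is the end richest in this megakaryocyte message, and its median depths were 91914 UMIs in RO-3066 and 70524 in DMSO. The RO-3066 share of that class (40.1 to 57.1%) was below that of the whole library (60.5%, 58.9 to 62.1%), and the source of these UMIs was not tested. In the fourth class the median depths were 76925 UMIs in RO-3066 and 30351 in DMSO. Restricted to cells of 15000 to 40000 UMIs the ratios were 2.05, 2.36, 1.68, 2.12 and 5.25, with 36 and 15 RO-3066 cells in the last 2 classes, so RO-3066 stayed above DMSO but the size of the gap at high Pf4 moved with depth.

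Car2 was highest in the lowest class of RO-3066 and lower in each class above it, while in DMSO it was level over the 3 lower classes and lower in the 2 upper ones. It stood at 599, 566, 482, 197 and 136 CPM in RO-3066 and at 408, 409, 398, 211 and 89.7 CPM in DMSO. In the fourth class, RO-3066 was slightly below DMSO (ratio 0.935, 0.909 to 0.962), although not within 15000 to 40000 UMIs (1.14, 1.02 to 1.27).

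Epor ran against the globin over these classes, and Klf1 did so only in part. In DMSO, Klf1 and Hbb-bt were both lowest in the highest Pf4 class. Epor was higher where Pf4 was higher, at 5.56, 6.65, 15.5, 19.96 and 24.7 CPM in RO-3066 and at 5.80, 5.64, 11.1, 15.7 and 16.4 CPM in DMSO. Klf1 was highest in the middle classes, at 0.763, 1.51, 4.22, 4.64 and 2.4997 CPM in RO-3066 and at 0.583, 0.877, 1.16, 1.57 and 0.369 CPM in DMSO. Both were highest in classes richer in Pf4 than the class where Hbb-bt was highest. In cells of 15000 to 40000 UMIs the Epor ratio was between 0.799 and 1.03 over the 5 classes, and the Klf1 ratio was 0.987, 1.19, 1.67 and 3.73 in the first 4, with 0 Klf1 UMIs in both libraries in the fifth. Hbb-bs, at 5.34 CPM in RO-3066 and 3.62 CPM in DMSO in the lowest class, was at 3.11 and 0.410 CPM in the highest. In the third class it was lower in RO-3066 (3.51 against 5.65 CPM in DMSO), where the DMSO cell with 149 UMIs falls.

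**Figure D3:**
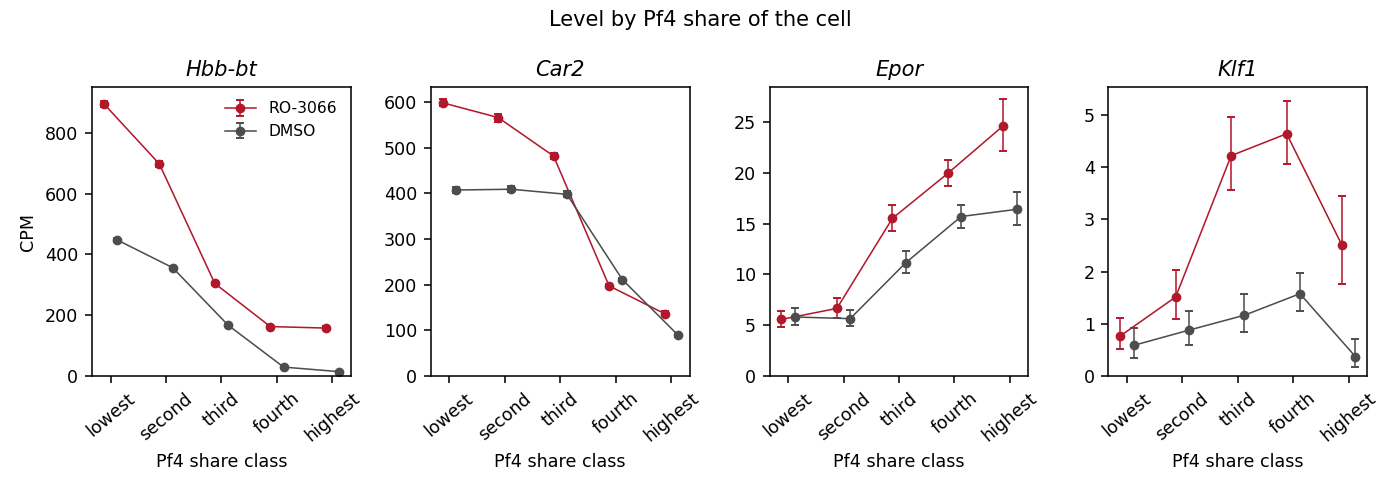
CPM of Hbb-bt, Car2, Epor and Klf1 (each axis from 0) by class of Pf4 share, from lowest to highest, RO-3066 in red left of DMSO in grey, with exact 95% Poisson intervals. Hbb-bt and Car2 are highest at low Pf4, at 896 and 599 CPM in RO-3066, Epor is highest at high Pf4, and Klf1 is highest in the third and the fourth class of RO-3066.

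By Gata1, the factor common to both branches, the picture was similar. Thinned cells with 0, 1 and 2 to 3 Gata1 UMIs in 10000 numbered 2982, 447 and 121 in RO-3066 and 5051, 539 and 153 in DMSO, with 9 RO-3066 and 6 DMSO cells above that, too few to read. Hbb-bt stood at 526, 223 and 157 CPM in RO-3066 and at 228, 35.8 and 44.9 CPM in DMSO, so cells with Gata1 UMIs had less globin, not more. Its ratio of RO-3066 over DMSO was 2.30, 6.21 and 3.497. Car2 also was highest without Gata1, at 447, 283 and 262 CPM in RO-3066 and 327, 215 and 221 CPM in DMSO.

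Epor was higher in cells with Gata1 UMIs, at 11.8, 20.04 and 21.7 CPM in RO-3066 and 9.93, 15.5 and 18.998 CPM in DMSO. Klf1 was at 2.52, 4.21 and 4.71 CPM in RO-3066 and 0.874, 1.59 and 1.39 CPM in DMSO. These classes differ in depth as well, with medians of 32427, 63224 and 73048 UMIs in RO-3066 and 23668, 30065 and 29895 in DMSO. Among cells of 15000 to 40000 UMIs Hbb-bt was at 742 CPM in RO-3066 and 265 CPM in DMSO without a Gata1 UMI, and at 322 CPM in 88 RO-3066 cells and 61.8 CPM in 488 DMSO cells with 1 or more. The order by Gata1 was the same on both sides of the DMSO median of the Pf4 share. Below it, Hbb-bt was at 828 and 436 CPM without and with Gata1 UMIs in RO-3066, and at 402 and 134 CPM in DMSO. Above it, Hbb-bt was at 229 and 181 CPM in RO-3066, and at 85.8 and 32.8 CPM in DMSO.

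**Figure D4:**
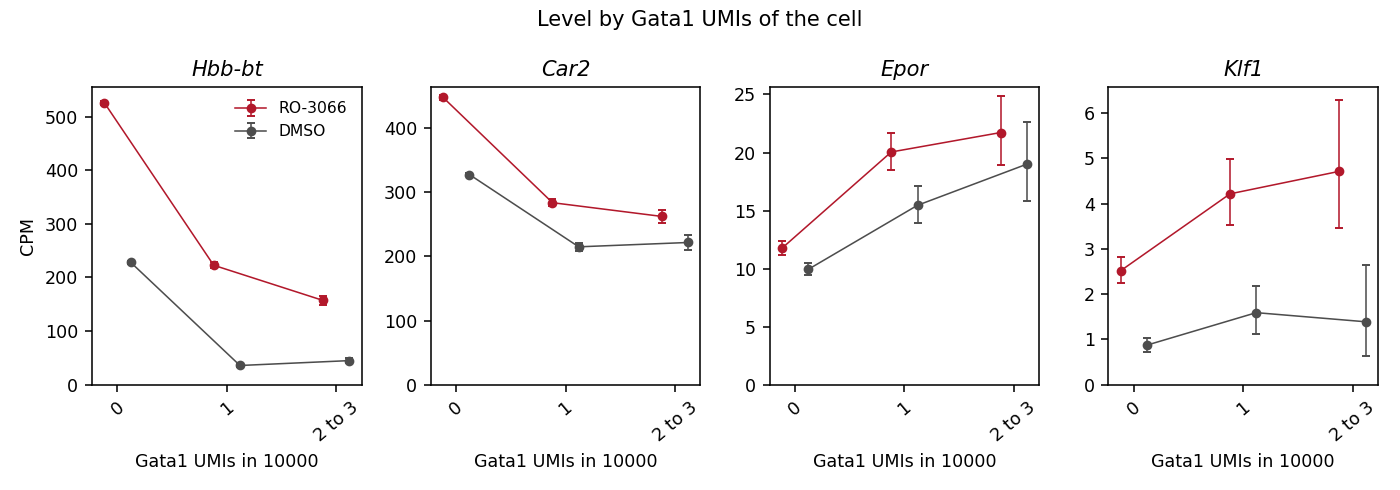
CPM of Hbb-bt, Car2, Epor and Klf1 (each axis from 0) in cells with 0, 1 and 2 to 3 Gata1 UMIs among 10000, RO-3066 in red left of DMSO in grey, with exact 95% Poisson intervals. Hbb-bt is highest in cells without Gata1 UMIs, at 526 CPM in RO-3066 and 228 CPM in DMSO, while Epor is lowest there.

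Levels of the members also differed by depth. Cells below 15000, of 15000 to 40000, over 40000 and up to 80000, and above 80000 UMIs numbered 349, 1785, 1100 and 449 in RO-3066 and 452, 4672, 464 and 245 in DMSO. Across these bands Hbb-bt stood at 1509, 718, 374 and 204 CPM in RO-3066 and at 757, 242, 90.3 and 18.8 CPM in DMSO, higher in RO-3066 by 1.99, 2.97, 4.14 and 10.8 times. Car2 likewise was higher in RO-3066 in all 4 bands, by 1.19, 1.58, 1.91 and 2.18 times. Pf4 was highest in the deepest band, at 778, 592, 3106 and 9308 CPM in RO-3066 and 1014, 1899, 7872 and 15722 CPM in DMSO, so the deepest cells were also the richest in Pf4, and the part of each in these differences was not tested.

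**Figure D5:**
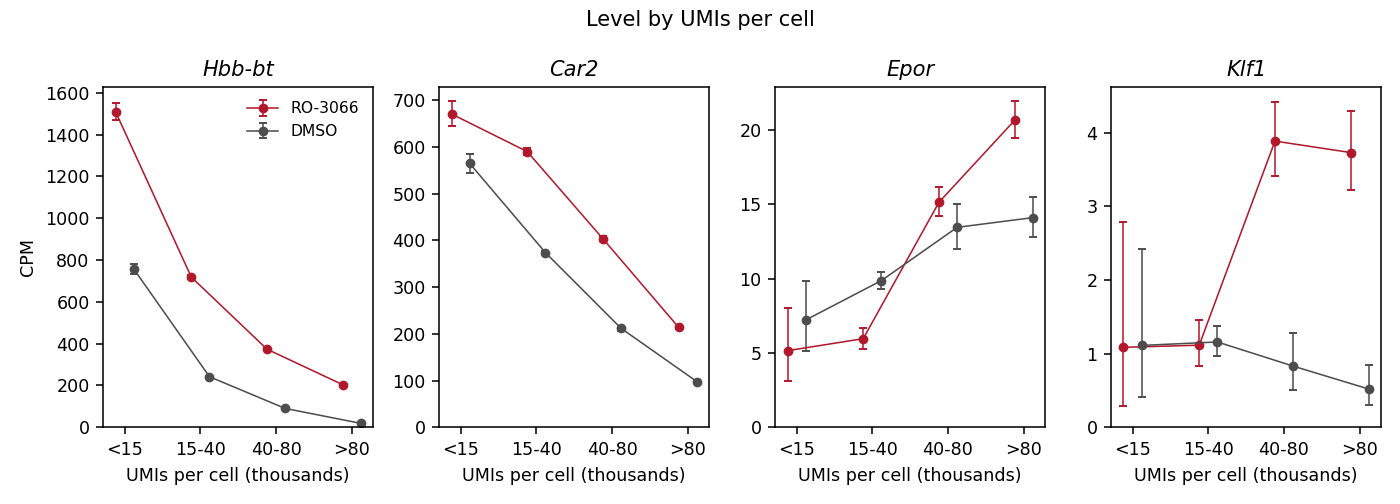
CPM of Hbb-bt, Car2, Epor and Klf1 (each axis from 0) in 4 bands of UMIs per cell, RO-3066 in red left of DMSO in grey, with exact 95% Poisson intervals. Hbb-bt and Car2 are lower in deeper cells of both libraries but above DMSO in every band of RO-3066, whereas Klf1 is at 1.11 CPM in RO-3066 and 1.16 CPM in DMSO between 15000 and 40000 UMIs, and Epor is below DMSO in RO-3066 cells of 15000 to 40000 UMIs.

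Along the cell cycle the globin changed direction in 1 class of cells. Cells were divided at the quartiles of DMSO by the UMIs of 51 G2/M genes in 10000. From the lowest to the highest class Hbb-bt was higher in RO-3066 by 1.55, 2.95, 3.45 and 2.48 times. By 40 S phase genes the ratios were 2.92, 2.34, 2.12 and 1.97. In the cells lowest in both lists, 131 in RO-3066 and 168 in DMSO, Hbb-bt was instead lower in RO-3066, at 422 CPM against 675 CPM in DMSO (ratio 0.625, 0.585 to 0.667). The share of these cells with an Hbb-bt UMI after thinning was nevertheless 61.8% (52.9 to 70.2%) in RO-3066 and 51.8% (44.0 to 59.5%) in DMSO, and their median depths were 23785 UMIs in RO-3066 and 13596 in DMSO. Car2 was at 468 CPM in RO-3066 and 480 CPM in DMSO in those cells (ratio 0.977, 0.911 to 1.05).

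The cells with most Hbb-bt carried more stem cell messages and fewer megakaryocyte ones. In RO-3066 cells with 10 or more Hbb-bt UMIs in 10000 the 10 stem cell markers summed to 729 CPM, against 434 CPM in RO-3066 cells with 0. DMSO had 756 CPM in such cells and 378 CPM in those with 0. Hlf, a stem cell transcription factor, led the list in the Hbb-bt-rich cells of both libraries. The 12 megakaryocyte markers summed to 2066 CPM against 6648 CPM in RO-3066, and to 794 against 7412 CPM in DMSO, in cells with 10 or more Hbb-bt UMIs and in cells with 0. Pf4 made up most of these sums. Without it they were 801 against 1371 CPM in RO-3066 and 379 against 816 CPM in DMSO, a smaller difference.

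Markers of other lineages were summed in the same cells. The 12 neutrophil and monocyte markers summed to 197 against 120 CPM in RO-3066 and to 239 against 129 CPM in DMSO. Of these, 3 reached 1 CPM in at least 1 library, and Prtn3, a granule protease, led in the Hbb-bt-rich cells. Lymphoid markers summed to less there, 65.2 against 90.7 CPM in RO-3066 and 31.5 against 52.7 CPM in DMSO, mostly Nkg7. Without Nkg7 the lymphoid sums were not lower, at 22.7 against 22.4 CPM in RO-3066 and 14.7 against 10.7 CPM in DMSO. Endothelial and stromal markers summed to less in the Hbb-bt-rich cells (31.3 against 42.6 CPM in RO-3066, 19.7 against 29.8 CPM in DMSO). So were mast cell, basophil and eosinophil markers (6.20 against 7.54 CPM in RO-3066, 1.35 against 3.24 CPM in DMSO). The 13 late red cell markers summed to less there, 119 against 155 CPM in RO-3066 and 75.8 against 99.96 CPM in DMSO, mostly Hemgn. Without Hemgn the sums were not lower, at 44.3 against 44.0 CPM in RO-3066 and 35.9 against 32.4 CPM in DMSO. Gata1 was at 12.1 against 41.1 CPM in RO-3066 and at 2.02 against 28.1 CPM in DMSO. Median depth differed too, at 27791 UMIs in Hbb-bt-rich and 39648 in Hbb-bt-free RO-3066 cells, and at 19810 and 25204 in DMSO.

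The genes whose counts ran most like Hbb-bt over thinned cells, in both libraries, were S100a4 (Pearson r of 0.39 over 3559 RO-3066 cells and 0.33 over 5749 DMSO cells), Lsp1, Mecom, Vim and S100a11, the last 4 with r between 0.23 and 0.26. Mecom is a stem cell transcription factor, Vim is vimentin, an intermediate filament, and the S100 genes encode calcium-binding proteins. Pf4 was the most opposite gene, at -0.32 in RO-3066 and -0.31 in DMSO. For Car2 the most alike were S100a4 (0.46 in RO-3066 and 0.34 in DMSO), Vim, Stmn1, Gpx1 and Cmtm7. Hbb-bt and Car2 themselves correlated at 0.26 in RO-3066 and 0.19 in DMSO. Cells of 1 library share its culture, preparation and sequencing, so these values describe the libraries. No gene reached 0.2 in both libraries for Klf1, Epor, Hbb-bs, Hba-a1 or Hba-a2, and at their sparse counts weak correlations are not read.

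Of 77 other genes of red cell formation, 75 had a row and 56 reached 1 CPM. Of these, 7 were at least 2-fold higher in RO-3066 and 1 was at least 2-fold lower, beside 4.05% and 0.91% of all genes of at least 1 CPM. At 1.5-fold, 13 were higher and 2 lower, beside 10.9% and 3.08% of all genes. The median log2 ratio of the list was 0.20, against 0.03 over all genes. Among those of at least 5 CPM the highest ratios belonged to Sox6 (5.82 CPM in RO-3066 and 1.94 in DMSO, ratio 3.01), a factor that silences embryonic globin, Blvrb (118 and 53.5 CPM, 2.20), biliverdin reductase B, the water channel Aqp1 (12.5 and 6.17 CPM, 2.03), and the peroxide-clearing Gpx1 (471 and 267 CPM, 1.76). The lowest belonged to Tfrc (17.4 CPM in RO-3066 and 39.2 in DMSO, ratio 0.445), the transferrin receptor that brings in iron, the glucose transporter Slc2a1 (0.639), the cytokine feedback gene Socs3 (0.701) and the heme synthesis enzyme gene Cpox (0.728).

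By role, 13 transcription factors and cofactors had a median log2 ratio of 0.21, 16 heme and iron genes of 0.07, 7 Epo signalling genes of 0.17, 10 chaperone, enzyme and other genes of 0.22, and 10 membrane and cytoskeleton genes of 0.54. In the last role 4 of 10 were at least 2-fold higher in RO-3066, beside 4.05% of all genes. The heme and iron genes stood close to the median over all genes.

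Some membrane genes are named here after their values were seen. Rhag, which encodes the Rh-associated glycoprotein of the red cell membrane, had 397 UMIs in RO-3066 and 23 in DMSO. This is 2.40 against 0.131 CPM, a ratio of 18.3. After thinning, 1.88% of RO-3066 cells and 0.174% of DMSO cells had a Rhag UMI, and without thinning 6.87% and 0.343%. Within 15000 to 40000 UMIs its ratio was 10.9 (6.38 to 19.6). Epb42, which encodes the membrane protein 4.2, had 127 UMIs in RO-3066 and 11 in DMSO, a ratio of 12.2. At 0.769 and 0.0628 CPM it stayed below 1 CPM in both libraries and is not among the membrane genes counted above. Within 15000 to 40000 UMIs its ratio was 4.06 (1.48 to 12.2), from 12 UMIs in RO-3066 and 7 in DMSO. Sptb, which encodes a spectrin of the membrane skeleton, was 2.82 times higher in RO-3066. Within 15000 to 40000 UMIs the ratio of Sptb was 0.790 (0.387 to 1.51). Among unthinned RO-3066 cells 15.5% of the 374 with a Klf1 UMI and 5.89% of the 3309 without one had a Rhag UMI. Their median depths were 68568 and 32692 UMIs. In DMSO too few cells had a Rhag UMI for this comparison. By Pf4 class Rhag in RO-3066 was highest in the third, at 4.16 CPM, the range where Klf1 was also high, and lowest in the highest, at 0.540 CPM.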

How the data were processed

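Per the labels, RNA of single cells was captured and counted from its 3' end on the 10x Genomics platform. The authors deposited unnormalized UMI counts of every gene in every barcode. Cell Ranger 5.0.1 and mm10 are named per the submitters' processing notes, whereas per the file headers the version was 7.1.0. The gene annotation and the treatment of intron reads are not stated in the labels or headers. Reads shared by paired globin genes can be lost or split, and overlapping genes cannot always be told apart.

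Barcodes were kept with at least 1000 UMIs, 500 genes and at most 10% mitochondrial UMIs, which left out 84 in RO-3066 and 26 in DMSO. Likely doublets, taken as the barcodes with most simulated doublets near them (50 neighbours, expected rate 0.8% for each 1000 barcodes), were removed (115, 3.03%, in RO-3066 and 301, 4.91%, in DMSO). UMIs were summed over kept cells and scaled to CPM. Ratios are RO-3066 over DMSO with exact conditional Poisson intervals, shares have exact Clopper-Pearson intervals, and log2 ratios use CPM plus 1. A gene was counted as changed at a 2-fold ratio among genes of at least 1 CPM in either library. With 1 library per group no test was run. In thinning to 10000 UMIs, 124 RO-3066 and 84 DMSO cells with fewer were left out. The calculation was tested on simulated counts with known fold changes.

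Genes named are the 9 members, Gata1, Pf4, late red cell markers (some named by the rule are not reported here), the 4 highest and 4 lowest ratios of at least 5 CPM in the list of other red cell genes, and the 5 genes most alike each member. Leading genes of marker lists and Rhag, Epb42 and Sptb were named after their values were seen. The depth bands, the cell cycle classes and the limit of 30 Hbb-bs UMIs were added then. The members and lists were chosen with earlier results of these data known. Sequences are from RefSeq (GRCm38.p6). Scripts ran in Python 3.11.15 with pandas 2.3.3, scipy 1.17.1, numpy 2.4.6 and scikit-learn 1.9.0.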

Additional observations from a re-analysis of the deposited data

How the results depend on the processing

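No paired analysis was possible because each group has 1 library. The adult globin log2 ratio of 1.17 became 1.20 in thinned cells, 1.55 in cells of 15000 to 40000 UMIs, 1.23 and 0.96 with RO-3066 cells weighted to the Gata1 and to the Pf4 classes of DMSO, 1.30 without the 1% of cells with most globin, 1.15 with median-ratio scaling and -0.66 in the cells lowest in both S and G2/M genes (chosen after seeing the data), where Hbb-bt alone was at -0.68. Within 15000 to 40000 UMIs the log2 ratio of Klf1 was -0.029 and that of Sptb -0.079. The count of members at least 2-fold higher, 2, was 1 with equal weight per cell, in thinned cells, in cells of 15000 to 40000 UMIs, with Pf4 weighting and at a minimum of 5 or 20 CPM, 3 without the 1% of cells with most globin or without cells of 30 or more Hbb-bs UMIs, and 5 with no minimum, where 1 member was 2-fold lower against 0. The member no longer counted was Klf1 except under Pf4 weighting, where it was Hbb-bt. The median of the other red cell genes, 0.20, was 0.047 in the cells lowest in both cycle lists. The share of cells with an adult globin UMI, 61.4% in RO-3066 and 38.6% in DMSO, was 81.5% and 54.7% without thinning, 51.7% and 29.5% at 5000 UMIs, 73.4% and 46.5% at 20000, and 65.2% and 40.3% in cells of 15000 to 40000 UMIs. The top 1% of cells held 9.51% of adult globin UMIs in RO-3066 and 17.4% in DMSO, or 13.1% and 19.2% after thinning and 9.29% and 16.9% with doublets kept, and the top 10% held 51.0% and 70.5%. The causes of these changes were not tested. Depth limits Hba-a1, Hba-a2, Car1 and Tspo2, with at most 12 UMIs per library.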
